A study of Mus musculus with 24 samples.

Results

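The R-spondins and the proteins around them set how strongly a cell hears a WNT signal. The 10 genes described here were taken by their symbol in the array's annotation. They are 3 R-spondin ligands (Rspo1, Rspo2 and Rspo3), their 3 receptors (Lgr4, Lgr5 and Lgr6), the membrane ubiquitin ligases Znrf3 and Rnf43, and the WNT target genes Axin2 and Lef1. They are 10 of 18193 genes that the array reads with at least 1 probe set of a single gene symbol, and each was read from its single-symbol probe set with the highest mean log2 intensity over all arrays. RNA came from whole mammary glands of nulliparous Balb/c mice whose ovaries had been removed at 6 weeks of age, followed by 2 weeks of rest. The mice received 1 mg of progesterone in 100 µl of sesame oil under the skin each day, or the same volume of sesame oil as control, with glands taken 4, 16, 28 or 76 h after injections began. Every group, the oil controls included, thus lacked the ovarian source of hormone. The 8 groups hold 3 Affymetrix mouse genome arrays each, and each array carried pooled RNA of 5 mice, or 15 mice a group. With daily injections, glands at 4 and 16 h were taken before a second dose. At 28 and 76 h, time and the number of injections received cannot be told apart.

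R-spondins are secreted proteins that bind LGR4, LGR5 or LGR6 together with ZNRF3 or RNF43. The 2 ligases mark Frizzled receptors for removal, and an R-spondin takes the ligase from the membrane, so that more Frizzled stays there to bind WNT proteins. When WNT signals, beta-catenin enters the nucleus and binds TCF and LEF factors, of which LEF1 is one, and genes such as Axin2 and the ligases themselves are transcribed as brakes on the pathway. In the mouse mammary gland WNT signals are known to maintain basal stem cells, and R-spondin 1 is known as a factor that acts there together with WNT4.

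The promoters of Rspo1 and Axin2 are shown because Rspo1 had the largest change of the 10 genes and because Axin2 was the one member whose progesterone arrays all lay above the oil arrays at every time. Each is the 250 bases before the gene's start in RefSeq's table (build GRCm38.p6), on the plus strand, at chr4:124986180-124986429 for Rspo1 and at chr11:108920099-108920348 for Axin2, written 5′ to 3′. Capitals mark a match to the TCF/LEF motif as CTTTGAT or CTTTGTT, or to the half-site of some steroid receptors, TGTTCT. Each was searched on both strands.
Rspo1: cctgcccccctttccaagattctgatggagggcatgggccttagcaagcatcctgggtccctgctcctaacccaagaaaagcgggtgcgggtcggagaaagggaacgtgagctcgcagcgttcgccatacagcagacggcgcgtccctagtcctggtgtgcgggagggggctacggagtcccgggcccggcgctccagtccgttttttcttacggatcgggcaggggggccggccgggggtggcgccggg
Axin2: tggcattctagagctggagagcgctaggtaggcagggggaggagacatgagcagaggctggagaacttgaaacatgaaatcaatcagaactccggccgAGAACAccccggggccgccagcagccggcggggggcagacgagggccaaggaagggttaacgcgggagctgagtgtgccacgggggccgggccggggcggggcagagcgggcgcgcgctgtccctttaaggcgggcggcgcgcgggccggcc
Rspo1 held none of these letters and Axin2 held TGTTCT once, on the strand opposite to the gene, ending 147 bases before its start. Of 32851 promoter windows of this length, 3.21% held CTTTGAT, 5.03% CTTTGTT and 16.1% TGTTCT. The table held a promoter for 6 of the 10 genes. Some but not all windows of Lef1 and Rnf43 also held TGTTCT, and those of Lgr4 and Lgr6 held no match. A match is a description of the letters and not a binding site.

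Intensities are linear, and the median of all probe sets of an array lay between 62.8 and 70.2. A gene was tested if it lay above its array's median on at least 3 of the 24 arrays, which 12333 genes did, 6 of the 10 members among them. Rspo2, Rspo3, Lgr5 and Rnf43 did not, and lie where a level cannot be told well from background. Lgr4, Lgr6, Znrf3, Axin2 and Lef1 lay above the median on all 24 arrays. Rspo1 did so on 3 arrays, all from 76 h with progesterone, so that it entered the test through the group in which it was high. Its p-values without any filter are therefore given as well, and counts over the members that passed are no support for a pattern. Tests are limma's, two-sided, on log2 intensities, adjusted by Benjamini-Hochberg over the 12333 genes, with 0.05 as the threshold of the adjusted p for a call. Arrays of a group correlated with r from 0.965 to 0.993 across genes. Markers of mammary tissue were present, with 11 of 11 luminal and 7 of 7 white adipocyte markers above the array median in every group. The 10 skeletal muscle markers were above it too, at a mean log2 level between 9.45 and 12.3, and the 28 h oil arrays stood apart from the other oil arrays in fibroblast level (10.9 to 11.3, against 11.6 to 11.9) and mitosis level (7.73 to 7.90, against 6.89 to 7.52), so that values against oil at other times are given beside the 28 h results.

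**Figure D1:**
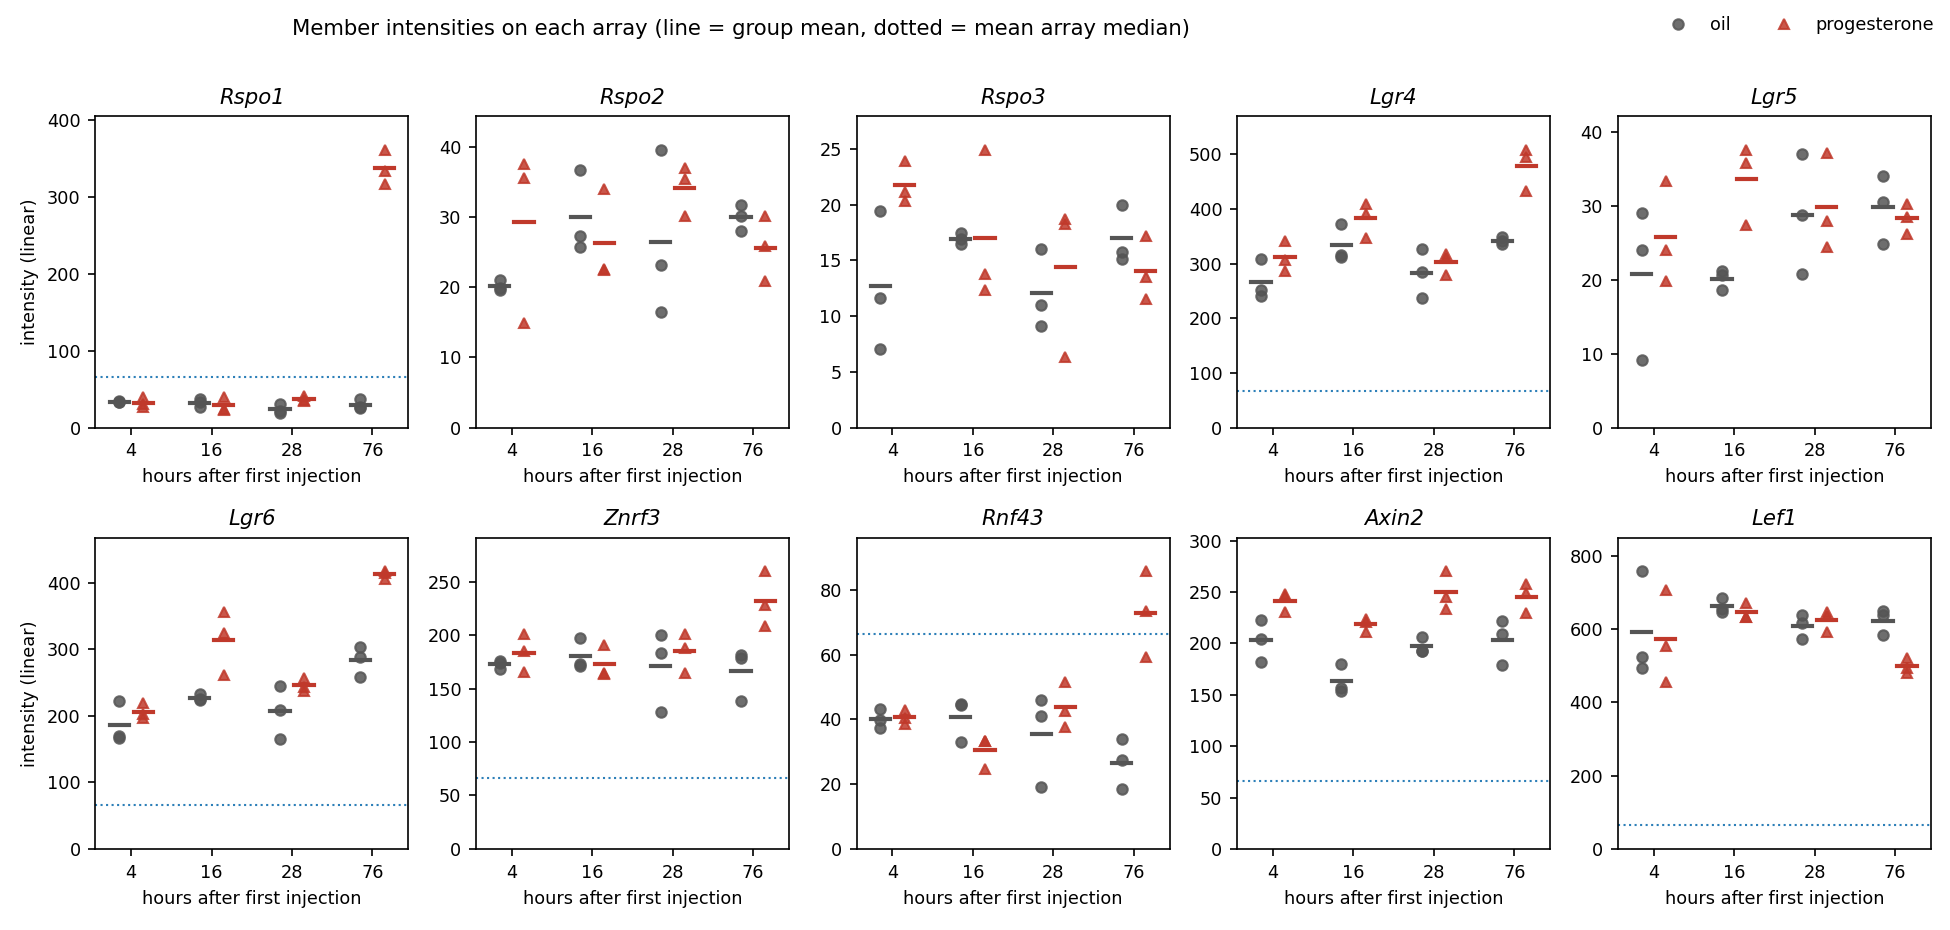
Intensity (linear, each axis from 0) of the 10 genes on each of the 24 arrays, by hours after the first injection, with oil as grey circles, progesterone as red triangles, a short line at each group's mean and a dotted line at the mean array median where the axis reaches it. Rspo1 lies between 19.0 and 40.7 on 21 arrays and between 316 and 362 on the 3 progesterone arrays of 76 h, and the Axin2 progesterone arrays lie above the oil arrays at all 4 times.

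Of the ligands, Rspo1 rose 11.5-fold at 76 h and was not called at any earlier time. On the 76 h oil arrays its intensities were 26.4, 25.9 and 36.9, and on the 76 h progesterone arrays 362, 316 and 334. The means were 29.7 ± 6.23 and 338 ± 22.9 (SD, n = 3 arrays each), a log2 change of 3.52 ± 0.24 (SE, limma adjusted p = 7.00e-10, and 5.03e-09 with no filter). The lowest progesterone array was 7.77 times as bright as the highest of the other 21 arrays. Its oil values were below the array median, which makes the size of the fold imprecise, and with a pseudocount of 16 the log2 change was 2.96.

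At the earlier times Rspo1 stayed dim. At 4 h the oil arrays read 33.3, 34.2 and 33.5 and the progesterone arrays 40.3, 30.1 and 27.0. At 16 h they read 36.7, 26.9 and 32.7 in oil and 40.0, 24.5 and 22.4 with progesterone. Groups overlapped at both times, with log2 changes of -0.07 and -0.19 and limma adjusted p of 0.940 and 0.700. At 28 h the oil arrays read 19.0, 30.5 and 21.7 and the progesterone arrays 40.7, 35.7 and 34.4. The 28 h groups did not overlap, but the difference of 0.66 ± 0.24 did not pass (limma adjusted p = 0.195). Set against oil at other times it was 0.22 (limma adjusted p = 0.638), and the 28 h oil mean of 23.7 ± 6.02 was the lowest of the 8 groups. The progesterone effect on Rspo1 differed between the times (moderated F-test, limma adjusted p = 5.77e-07, and 2.41e-06 with no filter). Of the other members, Lgr4, Lgr6, Znrf3, Axin2 and Lef1 had adjusted p between 0.271 and 0.803 in this F-test, which 9.95% of genes passed. Ordered by mean level, the groups from 28 h oil to 4 h oil overlapped each with its neighbour, and the 76 h progesterone group was the highest and apart from all others.

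The other R-spondins, Rspo2 and Rspo3, are ligands of the same receptors. Rspo2 read between 15.0 and 39.7 and Rspo3 between 6.29 and 24.9 over the 24 arrays, under the median of every array. At 76 h Rspo2 had means of 30.0 ± 1.91 in oil and 25.7 ± 4.61 with progesterone, and Rspo3 had 16.96 ± 2.62 and 14.1 ± 2.88, with groups that overlapped in both genes. At 4 h the Rspo3 progesterone arrays, at 23.9, 21.2 and 20.3, lay above the oil arrays at 19.4, 7.01 and 11.6, which with no filter had a limma adjusted p of 0.367. No rise like that of Rspo1 was detectable in either at this brightness.

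Among the receptors, Lgr4 rose 1.40-fold at 76 h. Lgr6 rose 1.46-fold on 1 probe set and not on a second, and Lgr5 was not measurable. LGR4 is the broadly expressed receptor, and LGR5 and LGR6 are known as markers of stem cells in the gut and skin. Lgr4 read 348, 340.5 and 336 on the 76 h oil arrays and 494, 509 and 433 on the progesterone arrays. The groups did not overlap, and the log2 change was 0.48 ± 0.12 (SE, limma adjusted p = 0.00653). At 4 h Lgr4 had means of 267 ± 36.0 in oil and 311 ± 28.0 with progesterone, at 16 h 333 ± 34.1 and 383 ± 32.2, and at 28 h 283 ± 45.4 and 303 ± 20.4. Those groups overlapped at each of the 3 times, and none of the changes passed (limma adjusted p from 0.374 to 0.860). Array weights called Lgr4 at 4 h (0.33, limma adjusted p = 0.00929) and 16 h (0.31, limma adjusted p = 0.000660), in a fit that called 22.4% and 59.3% of all genes. Set against oil at other times it was called at 16 h (0.38, limma adjusted p = 0.0309), as were 4.50% of genes. Ordered by level, only the 76 h progesterone group of Lgr4 lay apart from its neighbour, since the other 7 overlapped in sequence.

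Lgr6 read 303, 289 and 258 on the 76 h oil arrays and 415, 418 and 406 on the progesterone arrays. This was a change of 0.55 ± 0.13 (SE, limma adjusted p = 0.00551) between groups that did not overlap. At 16 h the Lgr6 progesterone arrays, at 261, 324 and 356, also lay above the oil arrays at 226, 232 and 225. That change of 0.45 ± 0.13 did not pass (limma adjusted p = 0.152), and passed at 0.0137 without progesterone 16 h replicate 1, at 0.0119 set against oil at other times and at 1.05e-05 with array weights. With the mean of its probe sets it was 0.19 (limma adjusted p = 0.518). At 4 h the Lgr6 means were 186 ± 31.6 in oil and 206 ± 11.3 with progesterone, and at 28 h 207 ± 40.0 and 246 ± 10.1, with overlapping groups. The 4 oil groups of Lgr6 also differed among themselves (moderated F-test, limma adjusted p = 0.0176, a test that 12.2% of genes passed), with the 76 h oil arrays above the oil arrays of the earlier times. Ordered by mean, its 76 h progesterone group was the highest and apart from the next, the 16 h progesterone group at 314, which overlapped 76 h oil at 283. That oil call rested on single arrays, and was lost when replicate 1 of 4 h oil, or replicate 1 or 2 of 76 h oil, was left out.

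A second Lgr6 probe set did not show the 76 h rise. It read 110, 122 and 111 in oil and 122, 120 and 125 with progesterone, a change of 0.10 ± 0.21 (limma adjusted p = 0.830 with each probe set tested alone). With the mean of both probe sets Lgr6 stood at 0.32 and was not called (limma adjusted p = 0.157). In oil the mean of this probe set was 114 at 76 h and between 67.0 and 81.6 at the earlier times. Lgr5 read between 9.14 and 37.6, under the median of every array, with 76 h means of 29.8 ± 4.64 in oil and 28.3 ± 2.06 with progesterone. Its 16 h progesterone arrays, at 27.4, 37.6 and 35.8, lay above the oil arrays at 18.7, 20.6 and 21.1, a difference that with no filter had a limma adjusted p of 0.302.

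The 2 ligases that R-spondins act on were both higher at 76 h. Znrf3 read 139, 182 and 179 on the 76 h oil arrays and 260.0, 228 and 209 on the progesterone arrays. The groups did not overlap, and Znrf3 rose by 0.49 ± 0.15 (SE, limma adjusted p = 0.0233). This call was lost without oil 76 h replicate 1 (limma adjusted p = 0.152), progesterone 76 h replicate 1 (0.131) or progesterone 76 h replicate 2 (0.0556). At 4, 16 and 28 h the Znrf3 changes were 0.08, -0.06 and 0.13, with groups that overlapped at each time. Its 4 oil means lay between 166 and 180 and did not pass the F-test (limma adjusted p = 0.889).

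Rnf43 was dimmer. It read 27.4, 18.6 and 33.8 on the 76 h oil arrays and 73.4, 59.4 and 85.8 on the progesterone arrays, while the 21 arrays of the other groups spanned 18.6 to 51.4. The 76 h progesterone group thus lay above all other arrays, and 2 of its 3 arrays lay above the array median. Rnf43 was left out of the test by the filter. With no filter it rose 2.79-fold at 76 h (limma adjusted p = 0.000923, where 7.52% of 18193 genes rose), and its effect differed between the times (F-test, limma adjusted p = 0.0196). Its oil values were below the array median, so the size of the fold is imprecise. At 4, 16 and 28 h its log2 changes were 0.02, -0.42 and 0.40, between groups that overlapped.

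Axin2, a scaffold of the beta-catenin destruction complex and a widely used readout of WNT signalling, was slightly higher with progesterone at each time, and no single time passed the test. At 4 h it read 223, 205 and 182 in oil and 246, 248 and 231 with progesterone. At 16 h the values were 157, 154 and 180.1 against 211, 221 and 224. All 3 progesterone arrays lay above all 3 oil arrays at both times. At 28 h Axin2 read 193, 193 and 207 in oil and 271, 245 and 234 with progesterone. At 76 h it read 222, 209 and 179 against 249, 229.7 and 258. The groups again did not overlap, and 0.227% of the 12333 genes (28 genes) were higher without overlap at all 4 times. The Axin2 changes were 0.25, 0.42, 0.34 and 0.28 in order of time, each with an SE of 0.11, at limma adjusted p of 0.306, 0.102, 0.106 and 0.0762. The 16 h change passed at 0.0193 without progesterone 16 h replicate 1. With array weights, which give deviating arrays less influence, Axin2 passed at every time (limma adjusted p of 0.0241, 2.00e-06, 0.00855 and 0.0343), in a fit that called 22.4%, 59.3%, 13.1% and 39.1% of all genes.

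Averaged over the 4 times, Axin2 stood 0.32 ± 0.05 higher with progesterone (SE, limma adjusted p = 0.000233), a contrast looked at after the single times had been seen, by which 5.83% of genes were called higher. It was called there without any one of the 24 arrays. By the same contrast Rspo1 stood at 0.98, Lgr6 at 0.36 and Lgr4 at 0.26, all called, and Znrf3 at 0.16 and Lef1 at -0.09, neither called (limma adjusted p = 0.170 and 0.422). With the mean of its probe sets the Lgr6 value was 0.21 and not called (limma adjusted p = 0.0771). Rspo1 entered this test through its 76 h progesterone arrays (limma adjusted p = 1.31e-05 with no filter). Its changes were -0.07, -0.19, 0.66 and 3.52 in order of time, so its mean is no effect shared by the times. The 4 Axin2 differences from oil did not pass the F-test for a change with time (limma adjusted p = 0.803). Set against oil at other times, the Axin2 differences were 0.37, 0.12, 0.40 and 0.39 in order of time. All but the 16 h value were called, where 6.50%, 0.868% and 32.5% of genes passed at 4, 28 and 76 h. The 16 h oil group, at 164 ± 14.4, had the lowest mean of the 8 Axin2 groups, every oil mean lay below every progesterone mean, and the 28 h progesterone group had the highest. That low oil group is among the controls of each called value, so these calls are not separate from each other. A second Axin2 probe set read between 4.66 and 21.0 and gave no usable level.

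Lef1 encodes a nuclear partner of beta-catenin that is also expressed in T cells. At 76 h it read 637, 648 and 583 in oil and 480.2, 521 and 493 with progesterone. All 3 progesterone arrays were lower, by 0.32 ± 0.13, but the change did not pass (limma adjusted p = 0.104). It passed at 0.0459 without oil 4 h replicate 3, at 0.00943 in a fit of the 6 arrays of 76 h alone, at 0.00985 with array weights and at 0.0334 set against oil at other times. At 4 h Lef1 varied widely, from 494 to 758 in oil and from 456 to 706 with progesterone, and at 16 and 28 h its changes were -0.04 and 0.04. A second Lef1 probe set was also lower on all 76 h progesterone arrays (114, 101 and 103 against 141, 159 and 140), with a change of -0.46 ± 0.35 (limma adjusted p = 0.455 with each probe set alone). T cell markers were above the array median in every group, 10 of 10. At 76 h 5 of 10 fell (median -0.48), their mean log2 level spanning 9.24 to 9.33 in oil and 8.77 to 8.89 with progesterone. At 4, 16 and 28 h their medians were -0.30, -0.32 and -0.24, where Lef1 stood at -0.05, -0.04 and 0.04. Their part in the Lef1 values was not tested.

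**Figure D2:**
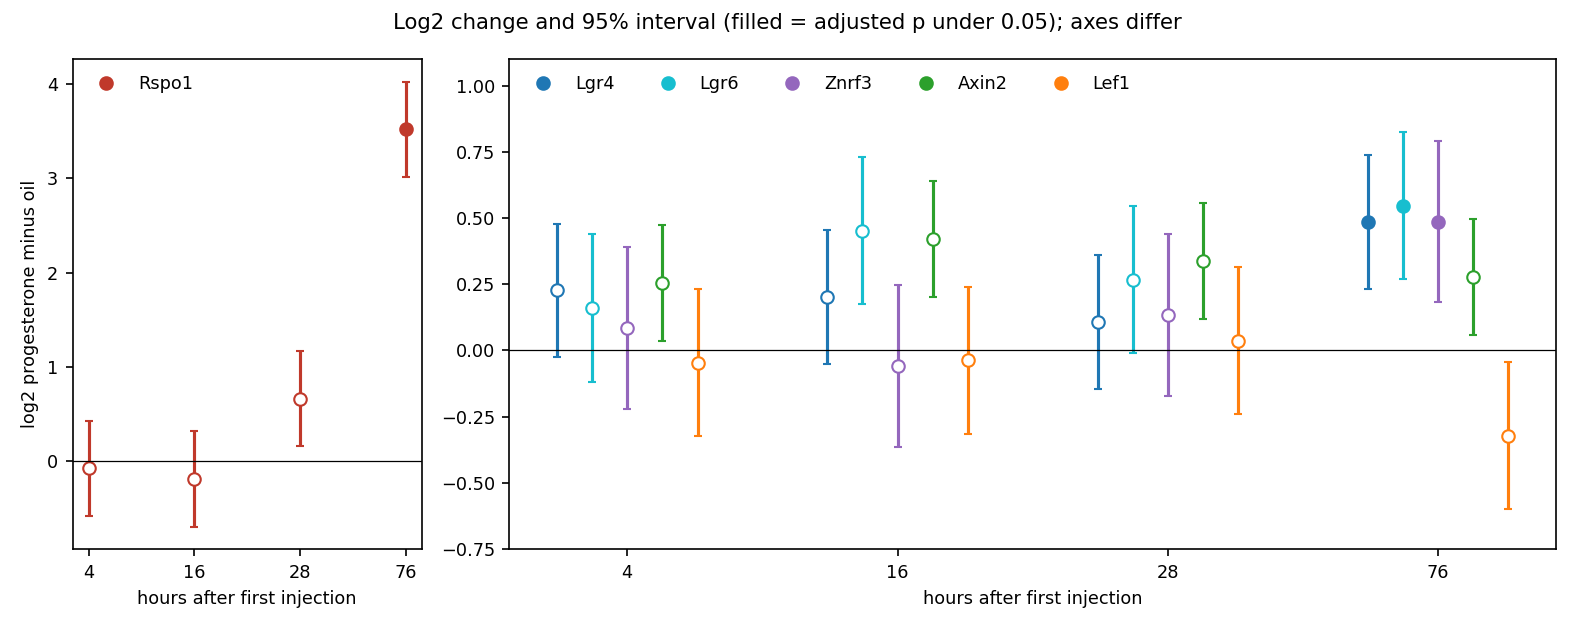
Log2 progesterone minus oil of the 6 tested genes (y axis) by hours after the first injection (x axis), with 95% intervals from the limma fit, Rspo1 on its own axis at the left and filled points at an adjusted p under 0.05. The filled points are Rspo1 at 3.52, Lgr4 at 0.48, Lgr6 at 0.55 and Znrf3 at 0.49, all at 76 h, and the 4 Axin2 points lie between 0.25 and 0.42.

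By time, none of the 6 tested members was called at 4, 16 or 28 h by limma, where 0.186%, 0.308% and 2.52% of all genes were (0.130%, 0.105% and 1.95% higher and 0.0568%, 0.203% and 0.576% lower). At an unadjusted p under 0.05, 1, 2 and 2 members passed at these times. With array weights limma called 2, 3 and 1 members, where the same fit called 22.4%, 59.3% and 13.1% of all genes. Set against oil at other times it called 1, 2 and 1 members, where 6.50%, 4.50% and 0.868% of genes passed. At 76 h, 4 of the 6 rose by limma and none fell, where 17.7% of all genes were called, 11.0% higher and 6.68% lower. Among the 4 is Rspo1, which passed the filter only through its 76 h progesterone arrays, so this count is no support for a pattern. With no filter 5 of all 10 members were called, beside 11.6% of 18193 genes. With the mean of each gene's probe sets 3 of 6 were, Lgr6 no longer among them. Unadjusted, all 6 tested members had a p under 0.05, with Lef1 the one that was lower. Array weights called all 6, beside 39.1% of all genes, and so did the comparison with oil at other times, beside 32.5%. With array weights 3 members passed the F-test for a change with time and 3 that between oil groups, beside 66.3% and 67.1% of all genes. The median log2 change of the 6 was 0.12, 0.08, 0.20 and 0.49 in order of time, beside -0.01, -0.07, 0.00323 and 0.02 over all genes. Of all 10 members, 6 were higher at 76 h in every progesterone array than in any oil array (Rspo1, Lgr4, Lgr6, Znrf3, Rnf43 and Axin2) and Lef1 was lower, in a comparison where 19.6% of all 18193 genes, dim ones included, were higher and 15.4% lower. At the earlier times 2 members were higher in this way at 4 h (Rspo3 and Axin2), 3 at 16 h (Lgr5, Lgr6 and Axin2) and 2 at 28 h (Rspo1 and Axin2), and none was lower. Of the 18193 genes 6.68% were higher and 9.79% lower at 4 h, 6.63% and 9.27% at 16 h, and 6.47% and 5.01% at 28 h.

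Epithelial and proliferation markers rose on the same 76 h arrays. Of 11 tested luminal markers 10 rose (median 1.44, up to 2.07 for the tight junction gene Cldn7), and their mean log2 level spanned 8.56 to 8.86 in oil and 9.98 to 10.2 with progesterone. Of 11 basal markers 8 rose (median 1.03, up to 2.65 for Trp63, the gene of the basal factor p63), with levels of 7.82 to 8.35 and 9.09 to 9.30. All 11 tested mitosis markers rose (median 1.495), with levels of 6.98 to 7.35 and 8.42 to 8.999. Of the other lists, 5 of 10 fibroblast markers rose (median 0.20), with levels of 11.6 to 11.8 in oil and 11.88 to 11.94 with progesterone, while 5 of 10 endothelial (median -0.37), 3 of 7 B cell (median -0.47) and 1 of 7 adipocyte markers (median -0.18) fell. Skeletal muscle markers had a median of -0.41 with none called. Of all genes 11.0% were called higher and 6.68% lower at 76 h, and the adipocyte count rests on 1 gene. The changes of 0.48 to 0.55 of Lgr4, Lgr6 and Znrf3 lay below the luminal, basal and mitosis medians. More cells of a type and more RNA per cell cannot be told apart in such whole-gland samples, and the part of these markers in the members' changes was not tested. Before 76 h no luminal marker was called. Of 11 basal markers 3 were called higher at 16 h (median 0.29) and 3 at 28 h (median 0.30), also against oil at other times. At 28 h 7 of 10 fibroblast markers were called higher (median 0.45). Lower at 28 h were 2 of 11 mitosis markers (median -0.80) and 1 of 10 T cell markers (median -0.24). Of all genes 0.105% were called higher at 16 h, and 1.95% higher and 0.576% lower at 28 h. Set against oil at other times, the 28 h medians were -0.10 for fibroblast, 0.17 for basal, -0.24 for mitosis and -0.11 for T cell markers.

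The wider WNT pathway, in 5 lists with 63 tested genes that are no members, had 1 gene called at 16 h, 6 at 28 h and 23 higher and 1 lower at 76 h. Of all genes, 0.308% were called at 16 h and 2.52% at 28 h, and 11.0% were higher and 6.68% lower at 76 h. At 4 h none was called, and Wnt4 stood at 0.99 (limma adjusted p = 0.0686). The median change of the 63 at 76 h was 0.27, beside 0.02 over all genes. The lists hold genes that also answer to other signals. They were chosen with earlier results of these data known. Their counts beside the share of all genes, here and in the next paragraphs, are therefore no support for a pattern.

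Of 12 tested genes for WNT ligands and their secretion, 5 rose at 76 h, beside 11.0% of all genes. Wnt4, the ligand made by hormone-sensing cells, rose from 68.7 ± 21.4 to 309.7 ± 35.2, having been higher already at 16 h (1.33) and 28 h (1.27). Wnt5b rose by 1.41, Wnt2 by 1.07 and Porcn, the acyltransferase that lipid-modifies WNT proteins, by 1.11. Wls, which carries WNT proteins to the surface, rose by 0.63. At 28 h Wnt2 (1.49) and Porcn (0.70) were called against their own oil arrays, but not against oil at other times (0.19 and 0.47, limma adjusted p = 0.613 and 0.0918).

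Of 14 tested receptor genes 6 rose at 76 h, beside 11.0% of all genes. The Frizzled genes Fzd7 (0.99), Fzd2 (0.98) and Fzd6 (0.81) rose, together with Ror1 (1.16), an orphan-type receptor for WNT5A, Fzd1 (0.60) and Kremen1 (0.33), a co-receptor of DKK inhibitors. The Frizzleds are the proteins that ZNRF3 and RNF43 remove. Fzd1 (0.48) and Ryk (0.44) were called at 28 h, of which Ryk was not against the other oil arrays (0.11, limma adjusted p = 0.646). Among 16 cytoplasmic transducers, 3 rose at 76 h, the beta-catenin inhibitor Ctnnbip1 (0.41), the kinase Csnk1a1 (0.28) and the tankyrase Tnks2 (0.27). Set against oil at other times Ctnnbip1 (0.10, limma adjusted p = 0.557) and Tnks2 (0.03, limma adjusted p = 0.801) were not called. Of 9 nuclear factors the corepressor Tle3 rose (0.46). With 11.0% of all genes higher at 76 h, the counts of transducers and nuclear factors lie near that share and are no result about these lists.

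Of 12 other tested genes known as targets or feedback inhibitors, 8 rose and 1 fell at 76 h (median 0.77), beside 11.0% and 6.68% of all genes. This list too was chosen with earlier results of these data known. The secreted inhibitor Wif1 rose from 84.0 ± 7.15 to 222 ± 51.9 and Nkd2, a feedback inhibitor that binds Dishevelled, from 105 ± 3.30 to 206 ± 6.16. Cyclin D1, Ccnd1, rose by 1.29 and Myc by 0.96, both of which drive proliferation and have many inputs. Smaller rises were those of Ephb3 (0.86), Sox9 (0.83), Bambi (0.70) and Cd44 (0.33). Procr, a surface marker of a basal stem cell population, fell from 453 ± 22.7 to 301 ± 42.2 (-0.60 ± 0.11, limma adjusted p = 0.000374). At 28 h Ccnd1 alone was called (0.57), and it was called against the other oil arrays too (0.66).

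**Figure D3:**
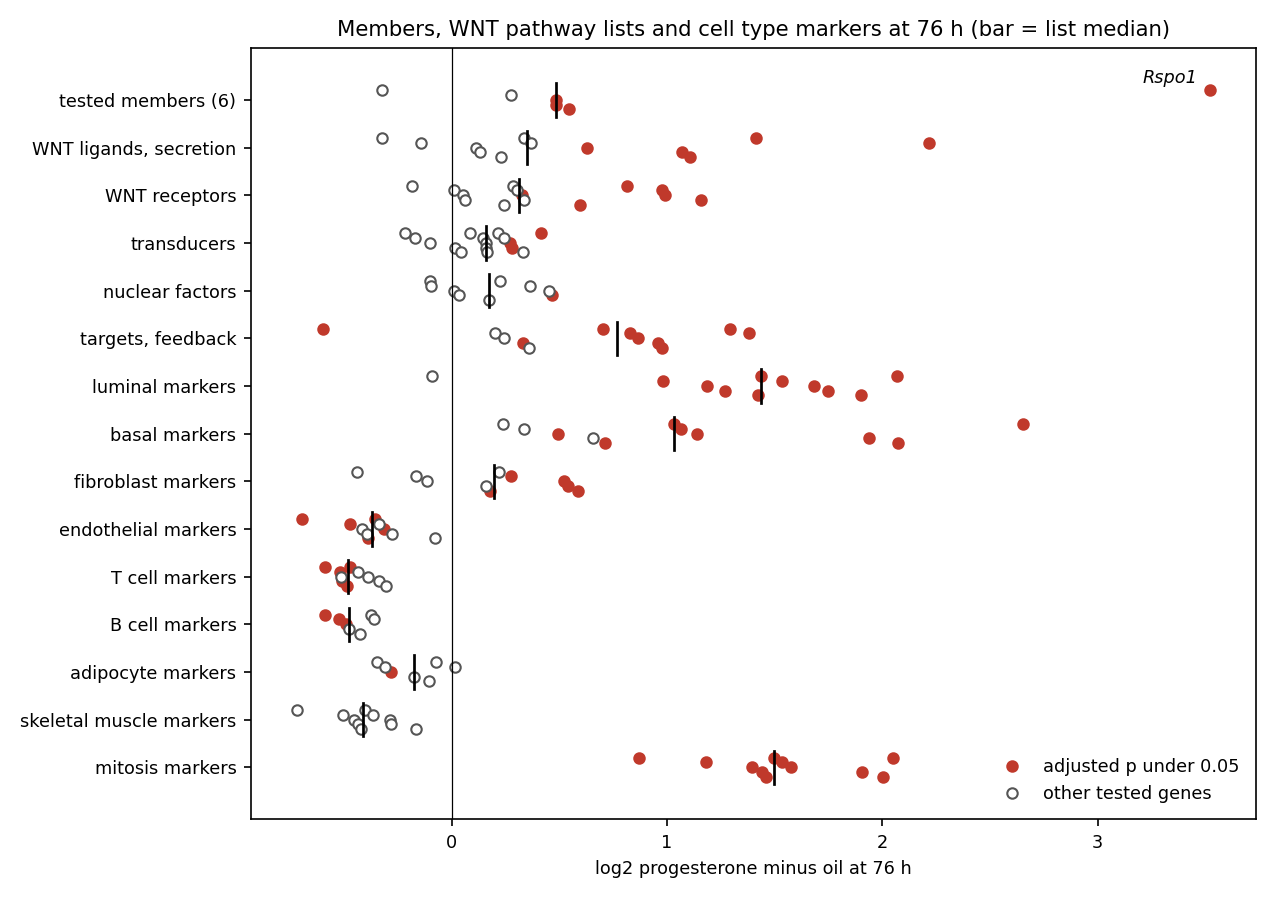
Log2 progesterone minus oil at 76 h (x axis) of the 6 tested members, of 5 lists of other WNT pathway genes and of 9 marker lists (y axis), each point a gene, red at an adjusted p under 0.05, with a bar at the list's median. Rspo1 lies at 3.52, over an oil level below the array median, and the luminal, basal and mitosis medians lie at 1.44, 1.03 and 1.495, above that of the members at 0.49.

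Across the 24 arrays, the genes with the values most like those of Rspo1 were Kera (Pearson r = 0.97), which encodes the matrix proteoglycan keratocan, Rcn1 (0.96), a calcium-binding protein of the endoplasmic reticulum, and the collagen gene Col16a1 (0.96). Those most like Lgr4 were the histone deacetylase gene Hdac2 (0.89), Ado (0.84) and Cibar1 (0.83). For Lgr6 they were the tetraspanin gene Tspan9 (0.88), Them5 (0.87) and the IGF-binding protein gene Igfbp2 (0.87), and for Znrf3 Enoph1 (0.88), Sephs1 (0.85) and Umps (0.84), the last an enzyme of pyrimidine synthesis. Among the members, Lgr4 and Lgr6 were the most alike pair (0.81), followed by Rspo1 with Lgr4 (0.72) and with Znrf3 (0.71), and Axin2 correlated with the other 5 tested members at r between -0.46 and 0.38. These values describe arrays that share groups and processing, and the 76 h progesterone arrays weigh heavily in them.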

How the data were processed

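RNA was extracted with Trizol and labelled with biotin in one cycle, per the labels' protocols. The authors deposited linear intensity values, 1 per probe set and array, for 45101 probe sets and 24 arrays. How probes were summarized and arrays normalized is not given in the sources used here. Whether the arrays of a group share more than the pooling is not stated beyond the label of biological replicates, so a p-value measures the spread between pools.

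The 10th percentile of all values (7.38) served as a floor, and the floored values were put on a log2 scale. The 64 control probe sets were left out, and 34945 probe sets had 1 gene symbol in the platform annotation of 2016. All arrays were fitted in 1 model with a mean per group in limma 3.58.1 (R 4.3.3), with an intensity trend and 16 residual degrees of freedom. Intensities carry the SD over 3 arrays, and log2 changes the SE of the fit. The fit was tested on simulated data. The number of arrays limits the precision, and exact tests of 3 against 3 arrays cannot go below p = 0.1.

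The members and lists were chosen with earlier results of these data known. Named were all members, up to 4 called genes with the largest change of each WNT list and time, the 3 most alike genes of each called member, and Wnt4. Wls, Fzd1, Kremen1, Ephb3, Sox9, Bambi, Procr, Cd44, Cldn7 and Trp63 were named after their values had been seen. Alternatives were other filters, floors, scalings, probe set rules, variance models, controls and a replicate block, leaving out each array, and, added after seeing the data, leaving out the 28 h arrays and the mean of the 4 differences.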

Additional observations from a re-analysis of the deposited data

Results flagged for a closer look

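The progesterone effect on Rspo1 differed between the times (moderated F-test, limma adjusted p = 5.77e-07). Its log2 changes at 4, 16, 28 and 76 h were -0.07, -0.19, 0.66 and 3.52. The 76 h change was called in each of the 15 other settings, with a limma adjusted p of 5.03e-09 with no filter. It was also called without any one of the 24 arrays, but the filter was not applied again there. Rspo1 had passed it only through the 3 progesterone arrays of 76 h, so those calls are no separate support. At the first 3 times both groups lay under the array median.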

How the results depend on the processing

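Each time's count of called members was 0, 0, 0 and 4 as reported. At 76 h the other settings gave 3 to 6 and leaving out 1 array 3 to 5, and Rspo1 and Lgr4 were called in all of them. When an array was left out, the filter stayed as set on all arrays, which Rspo1 passed only through its 76 h progesterone arrays. Array weights gave 2 members at 4 h, 3 at 16 h, 1 at 28 h, 3 whose difference changes with time and 3 that differ between oil groups, in a fit that called 22.4%, 59.3%, 13.1%, 66.3% and 67.1% of all genes in these tests. The oil arrays of the other times gave 1 member at 4 h, 2 at 16 h and 1 at 28 h. Without a filter, 2 members had differences that change with time, since Rnf43 then enters. Leaving out single arrays gave 0 to 2 called members at 16 h and 0 to 2 members that differ between oil groups. Some changes that were not called turned sign, the cause of which was not tested. With quantile normalization Lef1 read 0.0258 at 4 h and 0.0273 at 16 h, and with the mean of its probe sets -0.0604 at 28 h. With array weights Rspo1 read 0.18 at 4 h, and Lgr4 -0.0330 and Znrf3 -0.11 at 28 h. Against the other oil arrays, Rspo1 read 0.20, Lgr4 -0.0287 and Lgr6 -0.19 at 4 h, Znrf3 0.0345 and Lef1 0.10 at 16 h, and Lgr4 -0.0421 at 28 h. Without single arrays the 4 h values spanned -0.24 to 0.05005 for Rspo1 and -0.21 to 0.15 for Lef1, the 16 h value of Znrf3 -0.13 to 0.00632, and the 28 h values -0.0161 to 0.22 for Lgr4, -0.0592 to 0.26 for Znrf3 and -0.00661 to 0.0740 for Lef1. A replicate block, a term per replicate number shared by all groups, left the members called at 0, 0, 0 and 4. It moved the counts over all genes from 23, 38, 311 and 2183 to 28, 33, 295 and 2133. Of 12 same-numbered pairs 6 deviated together with r over 0.1 (range -0.02 to 0.34), which did not meet the rule that every pair do so, and the samples were not treated as paired. As a hint of pairing, 8 of 12 progesterone arrays correlated best with the oil array of their own number, each out of the 3 oil arrays of its time. Pairing within a time was not fitted, and the block, shared over the times, does not test it. Without the 28 h arrays the counts at 4, 16 and 76 h were 0, 0 and 4. Intensities under the array median limit Rspo2, Rspo3, Lgr5, Rnf43 and Rspo1 before 76 h.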

Other observations

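The members' second probe sets were mostly dim. Those of Lgr4 (5.80 to 19.1), Lgr5 (4.81 to 26.6), Znrf3 (up to 27.1), Rspo2 (up to 17.6) and Rspo3 (4.19 to 17.9) lay under the median of every array, so that the 76 h rises of Lgr4 and Znrf3 rest on 1 probe set each. Rspo1 and Rnf43 have 1 single-symbol probe set each.

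Besides Axin2, 3 genes of the WNT lists were among the 28 genes whose progesterone arrays lay above the oil arrays at all 4 times, Wnt2, Wnt4 and Kremen1. They were named after their values had been seen.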
